A study of Mus musculus with 3 samples.

Results

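The genes described here are the enzymes that oxidise, hydrolyse and conjugate foreign compounds in mouse lung. They were chosen by symbol, as every cytochrome P450 (Cyp followed by a family number), flavin monooxygenase (Fmo), aldehyde oxidase (Aox), carboxylesterase (Ces) and cytosolic glutathione transferase of the alpha, mu, omega, pi and theta classes (Gsta, Gstm, Gsto, Gstp, Gstt), with Cyp2f2 left out because it marks club cells. The rule found 130 genes among 23721 in the deposited tables. Of these, 117 were held by both tables, 7 by the cell table only and 6 by the nucleus table only. The 3 libraries, each made by the 10x droplet method, were 1 of whole cells and 2 of nuclei, all from lung of wild type C57Bl/6J mice with no treatment or time course named. The cells were released from fresh tissue with collagenase, DNAse and mechanical dissociation and cleaned on an Optiprep gradient. The nuclei were released with a lysis buffer from adult lung that had been snap frozen. Preparation and fresh or frozen tissue therefore cannot be told apart.

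Cytochrome P450 enzymes are haem proteins that insert oxygen into drugs, toxicants, fatty acids and sterols, with electrons passed on by the reductase Por. Flavin monooxygenases oxidise nitrogen and sulphur atoms, aldehyde oxidases oxidise aldehydes and nitrogen-containing rings, and carboxylesterases cut esters. Glutathione transferases then couple reactive products to glutathione. In lung, the club cells of the conducting airway are known as a main site of this chemistry and as a target of toxicants that P450 enzymes activate.

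The cell library held 35962788 counts in 11934 barcodes, against 28062109 counts in 6849 barcodes and 27148272 counts in 9806 barcodes in nucleus libraries 1 and 2. Median counts per barcode were 2864 in the cells and 4152 and 2521 in nucleus libraries 1 and 2. Nothing in the labels says that the nuclei came from separate animals. Each p-value given here rests on the spread between these samples, partly perhaps technical, which the fit shares over the genes it tests. A p-value therefore need not follow the spread of its own gene, and those of different classes come from separate fits. The female transcript Xist stood at 285 CPM in the cells and at 1023 and 9.61 CPM in nucleus libraries 1 and 2, and the Y-linked Uty at 1.03, 0.927 and 269 CPM in the same order, which sets nucleus library 2 apart from both others in its sex-linked transcripts. The libraries shared 20 to 24 cell barcodes pairwise. Barcodes were clustered without the 130 genes and without Cyp2f2, separately for cells and nuclei. Clusters were named from markers other than the 130 genes, although the club markers included Cyp2f2, itself a P450. Each name is written with "-like". The AT2-like, general capillary-like and alveolar fibroblast-like nuclei of libraries 1 and 2 fell mostly into different clusters (1320 of 1344 nuclei of 1 AT2-like cluster came from library 1 and 1589 of 1615 of the other from library 2).

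No club-like class was found among the cells, whereas 138 and 999 nuclei of libraries 1 and 2 (2.04% and 10.2%) were club-like. With clusters at resolution 2 in place of 1, the club-like class came to 48 and 322 nuclei (0.710% and 3.28%), and 149 and 867 nuclei had no name. Ciliated-like barcodes were 121 cells (1.01%), against 77 and 687 nuclei (1.14% and 7.01%). The club-like cluster rested on Cyp2f2, Cckar and Muc5b, the lowest number of markers that was accepted, while Scgb1a1, a secretoglobin that club cells release in quantity, was spread over all classes and did not set it apart. Its label therefore leans on Cyp2f2, which stood at 3528 and 3845 CPM (counts scaled to the total counts of the class) in club-like nuclei, against 483 and 723 CPM in T/NK/ILC-like nuclei. Levels in T/NK/ILC-like barcodes are given below for comparison. How much of them is free RNA from other cells was not tested. Cyp11a1, for one, was highest among the cells in that class, at 23.6 CPM. The T/NK/ILC-like levels are also not a floor common to all classes. Fmo1 in nucleus library 2, for example, stood at 33.2 CPM in club-like nuclei, below the 73.6 CPM in T/NK/ILC-like nuclei.

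**Figure D1:**
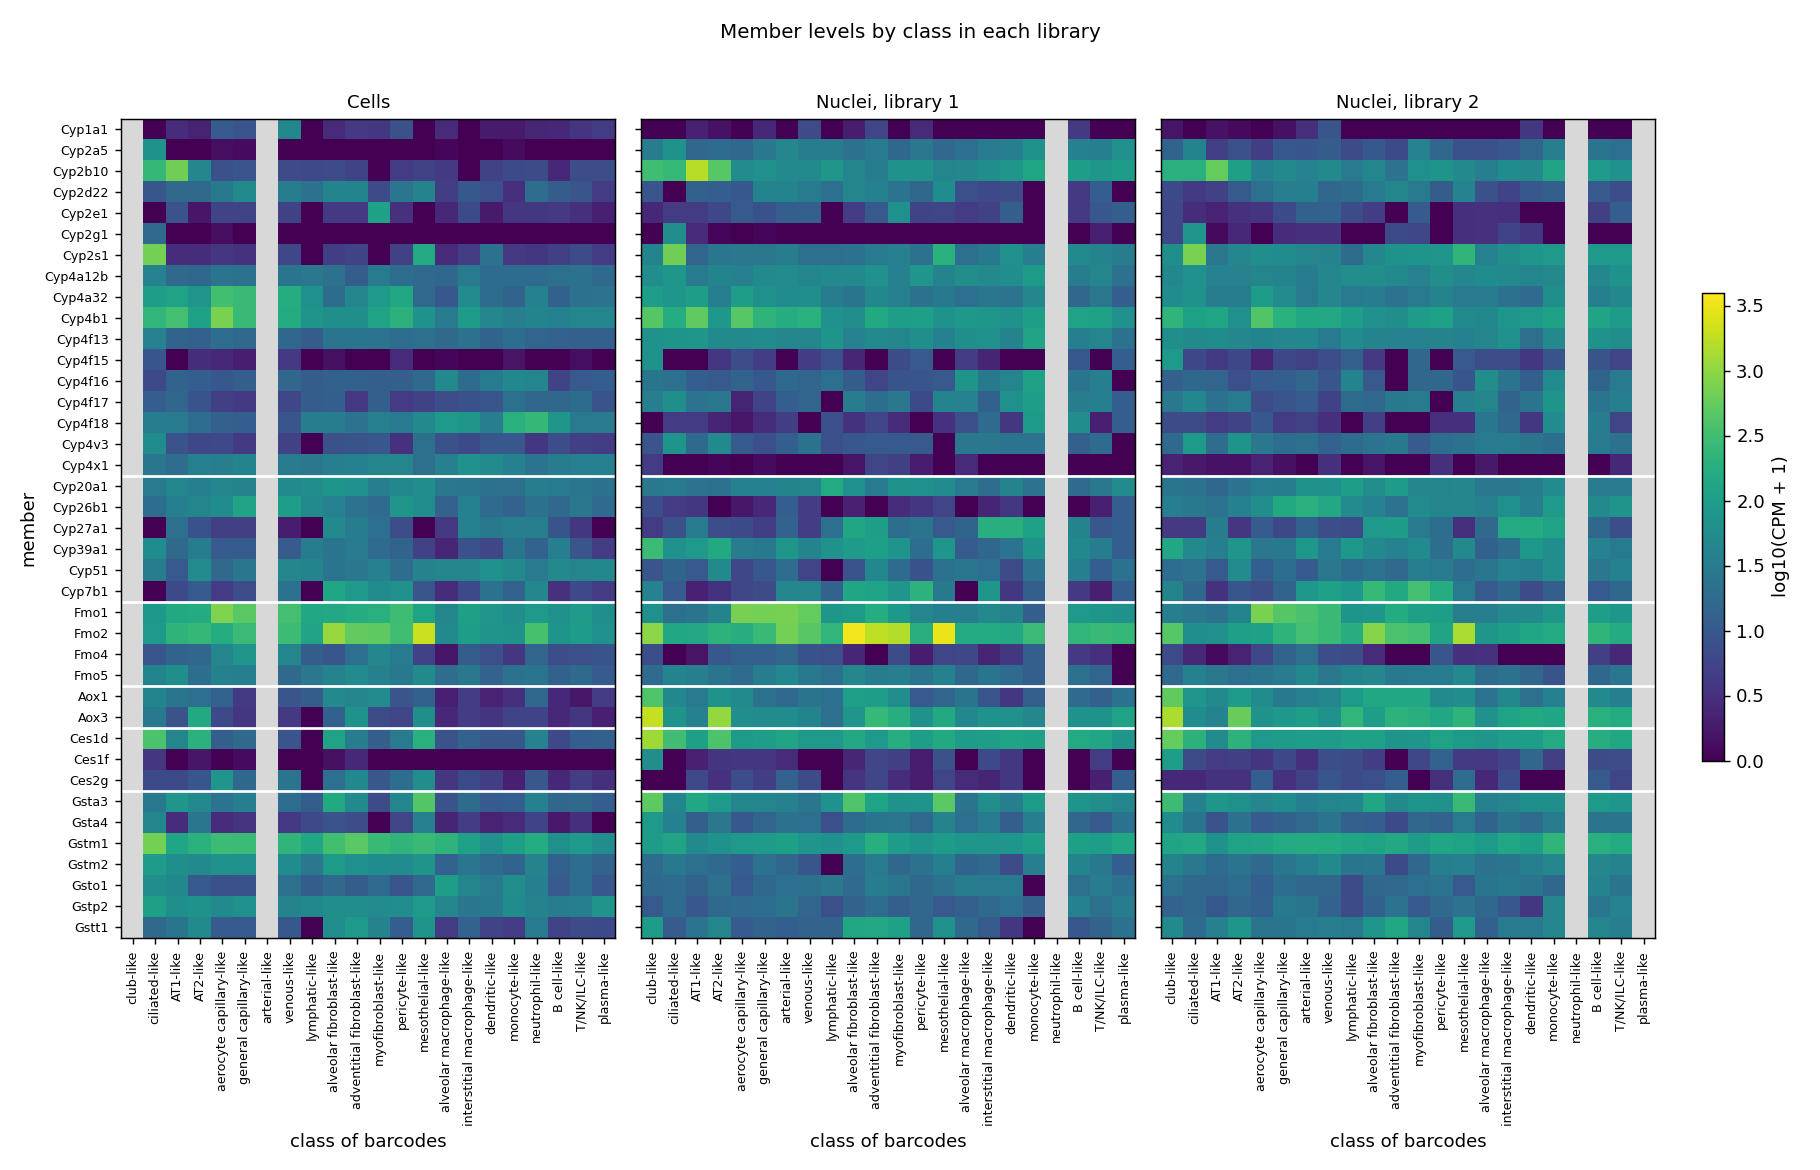
Level of 39 named genes (rows, grouped by enzyme family) in each class of barcodes (columns) in the cells and in nucleus libraries 1 and 2, as log10(CPM + 1). Grey marks a class with under 30 barcodes in that library. Aox3 and Ces1f are brightest in the club-like column of both nucleus libraries, Cyp2s1 and Cyp2g1 in the ciliated-like column, Cyp2b10 in the AT1-like column and Fmo2 in the mesothelial-like and alveolar fibroblast-like columns.

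Among the 123 genes of the nucleus table, 90 had at least 20 counts over the named nucleus classes, and the other 33 were too sparse to place. Of the 90, 18 had their highest mean level in club-like nuclei, 10 in ciliated-like, 3 in AT1-like and 2 in AT2-like nuclei, out of 20 classes compared. Myofibroblast-like nuclei led 9, monocyte-like 7, and adventitial fibroblast-like, arterial-like and mesothelial-like 6 each. The rest were led by other endothelial, stromal and immune classes. In 39 of the 90 the leading class was the same in both nucleus libraries, and in 22 it also exceeded the second class at least 2-fold in the mean of both. The club-like class was the leading one in both libraries for 12 genes, and at least 2-fold ahead for 10. A class is a cluster of the same barcodes, so these are descriptions with no test. The share of all genes led by each class was not computed, so the counts have no background beside them.

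Flavin monooxygenases differed in the classes that led them. Fmo2, the flavin monooxygenase known as the lung form in many mammals, was highest in mesothelial and stromal classes. It stood at 2066 CPM in mesothelial-like cells and at 3155 and 1393 CPM in mesothelial-like nuclei. Alveolar fibroblast-like barcodes held 1124 CPM in cells and 3369 and 883 CPM in nuclei, and adventitial fibroblast-like ones 549 CPM in cells and 1775 and 376 CPM in nuclei. Club-like nuclei held 936 and 465 CPM, in library 2 more than the adventitial fibroblast-like ones. Fmo2 in T/NK/ILC-like barcodes was 94.9 CPM in cells and 264 and 164 CPM in nuclei. In both fibroblast classes nucleus library 1 was several times higher than library 2, with the cells between them.

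Fmo1, a monooxygenase of broad substrate range, was highest in endothelial classes, and in the aerocyte capillary-like class its values were close in the 3 libraries. Aerocyte capillary-like barcodes held 799 CPM in cells and 718 and 758 CPM in nuclei, and, after thinning each barcode to 1000 counts, Fmo1 was found in 54.5% of cells and 48.3% and 48.0% of nuclei of that class. General capillary-like barcodes followed with 483 CPM in cells and 697 and 445 CPM in nuclei, and the 2 classes were not apart beyond the spread between nucleus libraries. Arterial-like nuclei held 721 and 370 CPM, venous-like barcodes 336 CPM in cells and 558 and 279 CPM in nuclei, and T/NK/ILC-like barcodes 84.2 CPM in cells and 77.2 and 73.6 CPM in nuclei. The rarer Fmo4 had its highest cell level in the general capillary-like class, at 73.5 CPM in cells and 11.8 and 12.9 CPM in nuclei.

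The main aldehyde oxidases, Aox3 and Aox1, were led by club-like nuclei. Aox3 stood at 1947 and 1449 CPM in club-like nuclei, and AT2-like barcodes came second with 152 CPM in cells and 1061 and 580 CPM in nuclei. Its T/NK/ILC-like level was 2.77 CPM in cells and 67.5 and 164 CPM in nuclei. Aox1 held 401 and 523 CPM in club-like nuclei, 3.74 times the mean of the next class, the alveolar fibroblast-like one, which held 48.2 CPM in cells and 107 and 140 CPM in nuclei. Aox2 and Aox4, the remaining members of the family, were sparse in nuclei, with highest means over both libraries of 10.6 CPM in ciliated-like and 2.77 CPM in adventitial fibroblast-like nuclei. Aox4 held 38.4 CPM in AT2-like cells, against 0.681 and 3.27 CPM in AT2-like nuclei (log2 fold 4.38, SE 0.62, edgeR adjusted p = 0.0007).

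Ces1d, Ces1e, Ces1f and Ces1g, carboxylesterases of the Ces1 group, were led by club-like nuclei as well, while Ces1b and Ces1c rested on 32 and 21 counts and did not have the same leading class in both libraries. Ces1d, a lipid and drug ester hydrolase, stood at 1217 and 563 CPM there. It stood at 384 CPM in ciliated-like cells and at 310 and 204 CPM in ciliated-like nuclei, and at 200.4 CPM in AT2-like cells and 391 and 211 CPM in AT2-like nuclei. Ces1d in T/NK/ILC-like barcodes was 11.1 CPM in cells and 135 and 139 CPM in nuclei. Ces1f was lower in level but more restricted, with 58.5 and 103 CPM in club-like nuclei and a mean 9.39 times that of the next class. Ces1g and Ces1e had the same leading class in both nucleus libraries, with mean levels of 25.3 and 19.9 CPM. Ces2g, of another carboxylesterase group, was highest in aerocyte capillary-like cells at 74.8 CPM, with 6.16 and 11.1 CPM in such nuclei.

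The P450 genes of families 1 to 4, which handle most foreign compounds, were spread over several classes. Cyp2s1, a P450 known from epithelia outside the liver, stood at 708 CPM in ciliated-like cells and at 654 and 758 CPM in ciliated-like nuclei. It was found in 56.2% of thinned ciliated-like cells (exact binomial 95% interval 46.9 to 65.2) and in 40.3% and 50.2% of such nuclei, against 0.283% of T/NK/ILC-like cells and 2.79% and 6.30% of T/NK/ILC-like nuclei. Mesothelial-like barcodes were second for Cyp2s1, with 157 CPM in cells and 196 and 224 CPM in nuclei. Cyp2s1 was thus highest in the same class in all 3 libraries and at nearly the same level.

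Cyp2g1, known as a P450 of the olfactory mucosa, held 16.3 CPM in ciliated-like cells and 57.9 and 77.2 CPM in ciliated-like nuclei, 24.4 times the mean of the next nucleus class. Cyp2b19 held 5.45 CPM in ciliated-like cells and 34.1 and 44.1 CPM in ciliated-like nuclei. Cyp2a5, which oxidises coumarin and nicotine, was highest there too, at 68.1 CPM in cells and 68.1 and 41.5 CPM in nuclei. The mean of its nuclei was 1.08 times that of monocyte-like nuclei, and T/NK/ILC-like barcodes held 0 CPM in cells and 34.3 and 19.9 CPM in nuclei. Cyp4v3, the mouse counterpart of the human fatty acid hydroxylase CYP4V2, held 54.5 CPM in ciliated-like cells and 71.5 and 91.7 CPM in ciliated-like nuclei.

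Cyp2b10, the P450 that phenobarbital induces in liver, was highest in AT1-like barcodes, the flat gas-exchange epithelium. It stood at 663 CPM in AT1-like cells and at 1636 and 554 CPM in AT1-like nuclei. A Cyp2b10 count was present in 43.8% of thinned AT1-like cells (36.2 to 51.6) and in 74.5% and 41.1% of AT1-like nuclei, against 0.567% of T/NK/ILC-like cells and 7.74% and 6.58% of T/NK/ILC-like nuclei. AT2-like barcodes held 44.8 CPM in cells and 460 and 110 CPM in nuclei, and ciliated-like ones 251 CPM in cells and 259 and 195 CPM in nuclei. AT1-like was the leading class for Cyp2b10 in each of the 3 libraries.

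Cyp4b1, which activates several lung toxicants, had no single home. Aerocyte capillary-like barcodes held 742 CPM in cells and 459.6 and 425 CPM in nuclei. AT1-like barcodes held 334 CPM in cells and 525 and 131 CPM in nuclei, and club-like nuclei 452 and 223 CPM. General capillary-like barcodes held 277 CPM in cells and 221 and 201 CPM in nuclei. The order of the 3 leading classes differed between the libraries. Its neighbour Cyp4a32, of the fatty acid omega-hydroxylases, shared the capillary levels but not those of AT1, with 326 CPM in aerocyte capillary-like cells and 105 and 97.1 CPM in such nuclei, and 264 CPM in general capillary-like cells and 62.8 and 52.8 CPM in such nuclei. Club-like nuclei held 99.6 and 53.7 CPM of Cyp4a32, the second highest mean among nuclei. Cyp4a32 counts are uncertain, because Cyp4a31 is a near-identical copy. Cyp1a1, the classical target of the aryl hydrocarbon receptor, rested on few counts, 48 in venous-like cells and 5 and 4 in venous-like nuclei, or 46.7 CPM in cells and 5.83 and 8.32 CPM in nuclei.

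Cyp4f18, which in mouse neutrophils is known to oxidise leukotriene B4, was a myeloid and B cell transcript. Neutrophil-like cells held 248 CPM, and no neutrophil-like nuclei were found. Monocyte-like barcodes held 192 CPM in cells and 90.3 and 52.9 CPM in nuclei, and B cell-like ones 79.4 CPM in cells and 58.0 and 32.5 CPM in nuclei. Cyp4x1 had almost no class pattern, with 18.3 to 65.8 CPM across 20 classes of cells and a median of 35.5 CPM, whereas no class of nuclei passed 4.68 CPM in library 1 or 2.08 CPM in library 2. The antisense transcript Cyp4x1os overlaps Cyp4x1 on the opposite strand and stood at 3.42 CPM in the cells. The sources used here do not say whether counting used strand. Reads from the stretch that both genes cover (chr4:115133832-115134281) therefore cannot be told apart.

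**Figure D2:**
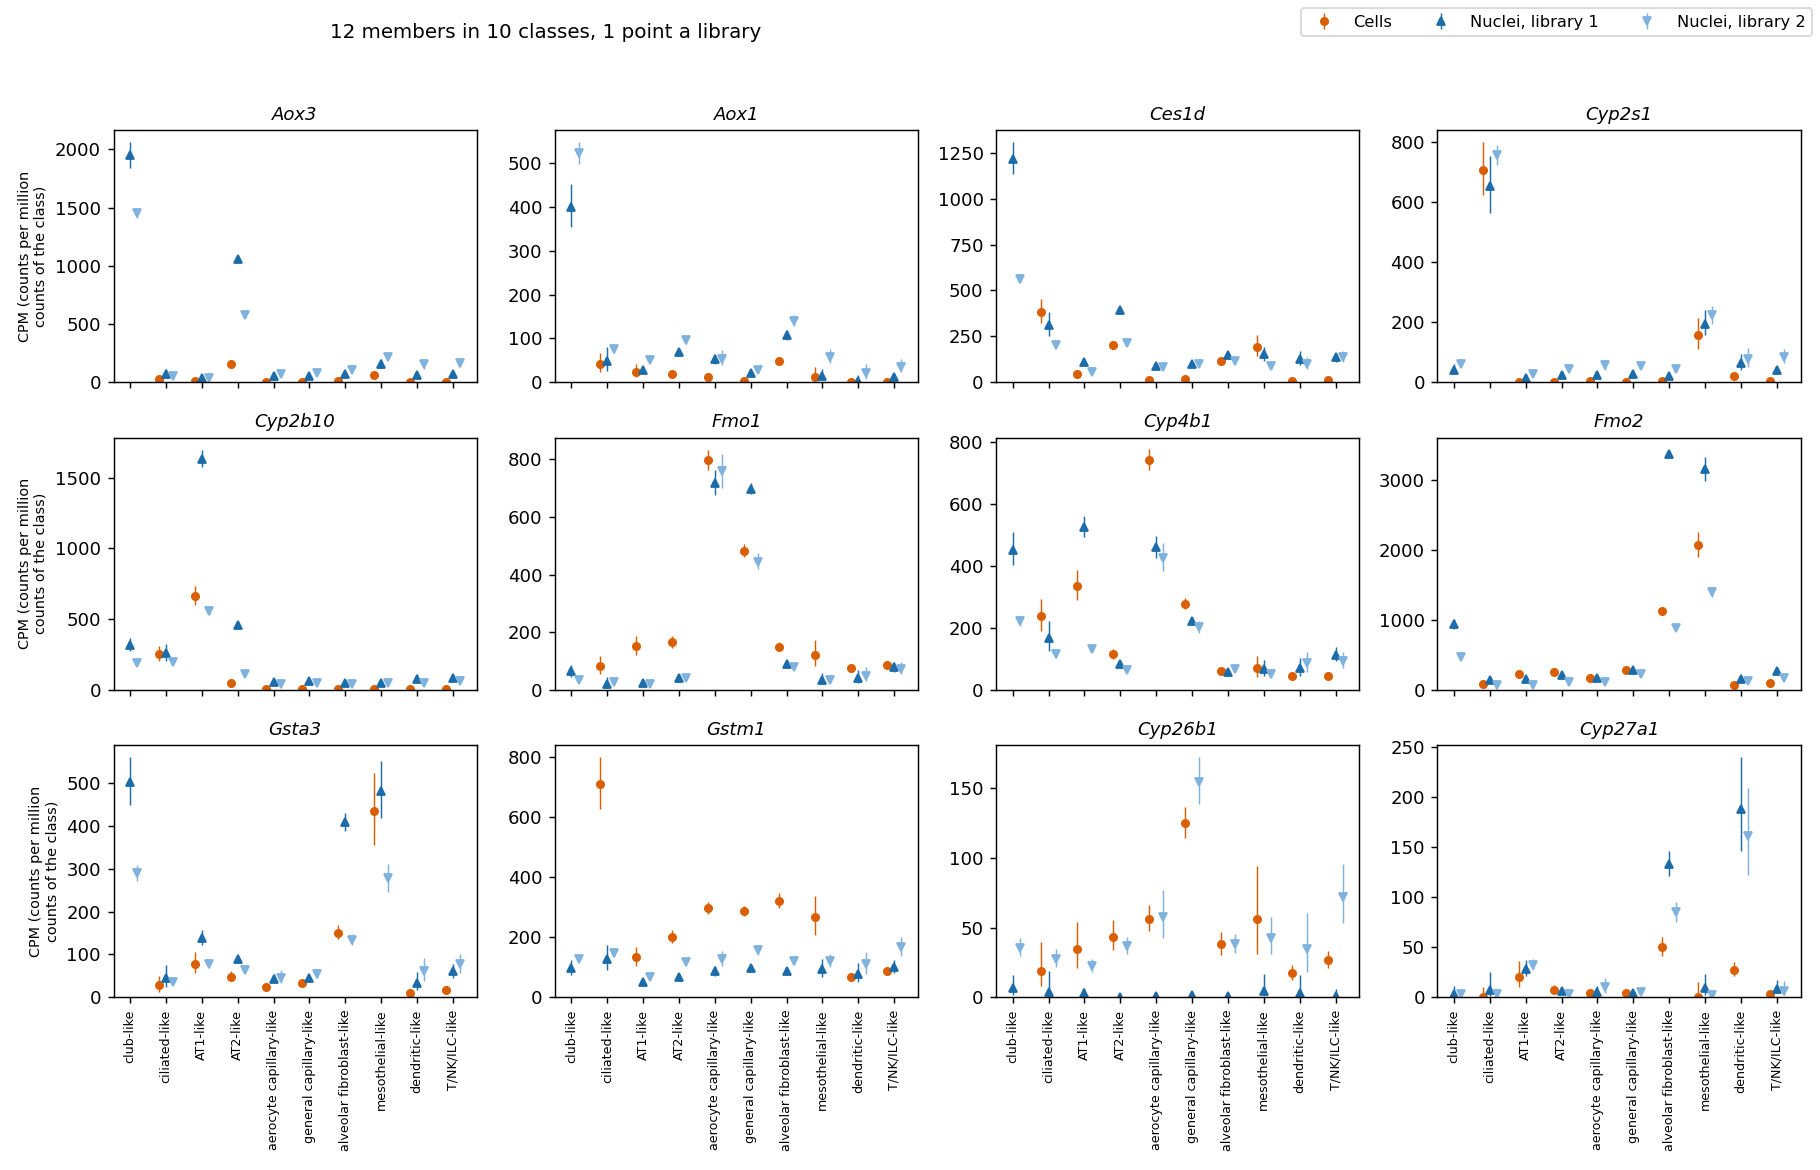
Level in CPM (vertical axis, from 0) of 12 genes in 10 classes, 1 point for each library (cells, nucleus library 1, nucleus library 2), with the exact Poisson 95% interval of the count. Aox3 peaks at 1947 and 1449 CPM in club-like nuclei, Cyp2s1 at 654 to 758 CPM in the ciliated-like class of all 3 libraries and Fmo1 at 718 to 799 CPM in the aerocyte capillary-like class. The club-like class has points for nuclei only.

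Sterol, retinoid and oxysterol P450 genes had other leading classes. Cyp27a1, the sterol 27-hydroxylase, stood at 27.2 CPM in dendritic-like cells and 188 and 161 CPM in dendritic-like nuclei, and at 37.4 CPM in interstitial macrophage-like cells and 186 and 158 CPM in such nuclei. Among the cells Cyp27a1 was highest in the alveolar fibroblast-like class, at 49.6 CPM, with 133 and 84.9 CPM in such nuclei. Cyp7b1, the oxysterol 7-hydroxylase, had its highest nucleus mean in the myofibroblast-like class, at 53.4 CPM in cells and 73.6 and 334 CPM in nuclei. It held 130 CPM in alveolar fibroblast-like cells and 131 and 259.5 CPM in such nuclei, and 62.8 CPM in pericyte-like cells and 214 and 168 CPM in pericyte-like nuclei. Cyp39a1, which hydroxylates 24-hydroxycholesterol, was led by club-like nuclei at 285 and 138 CPM. The 2 leading nucleus classes of Cyp27a1 did not differ beyond the spread between nucleus libraries.

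Cyp26b1, which degrades retinoic acid, was endothelial but nearly missing from 1 library. General capillary-like barcodes held 125 CPM in cells and 1.51 and 155 CPM in nucleus libraries 1 and 2, and arterial-like nuclei held 10.8 and 189 CPM. Over whole libraries Cyp26b1 stood at 39.9 CPM in the cells and at 1.62 and 51.1 CPM in the nuclei, a 31.5-fold gap between nucleus libraries 2 and 1. Ces4a, the next widest, stood at 14.3 CPM in the cells and at 0.433 and 11.1 CPM in the nuclei, a 25.6-fold gap. The cells and nucleus library 2 were alike in both genes, and library 1 stood apart. Of the enzymes with at least 50 counts over both nucleus libraries, 11 differed more than 3-fold between them. The share of all genes that did so was not computed. Higher in library 2 were also Cyp2s1, Cyp2g1, Cyp2b19, Cyp4f15, Cyp4f39, Cyp1b1 and Ces1f, beside higher club-like and ciliated-like shares there. Higher in library 1 were Cyp4a30b (6.20-fold) and Cyp4a31 (4.63-fold). Other genes led by club-like nuclei differed less. Aox3, Ces1d, Gsta3 and Cyp39a1 had ratios of library 2 over library 1 of 1.04, 0.896, 0.842 and 0.746. The part of the shares was not tested. For whole libraries, more nuclei of a class and more RNA per nucleus cannot be told apart.

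Glutathione transferases were less restricted. Gsta3 held 503 and 290.3 CPM in club-like nuclei, and mesothelial-like barcodes came next with 435 CPM in cells and 481 and 277.5 CPM in nuclei; the 2 classes overlapped. Gsta4, which conjugates 4-hydroxynonenal, a lipid peroxidation product, held 83.8 and 55.5 CPM in club-like nuclei. Gstm1, a mu-class enzyme, was present in every class and peaked in ciliated-like cells at 708 CPM, with 126 and 147 CPM in ciliated-like nuclei. Gstt1, of the theta class, was highest in adventitial fibroblast-like barcodes at 85.5 CPM in cells and 149.8 and 138 CPM in nuclei. Gsto1, of the omega class, was highest in alveolar macrophage-like cells at 105 CPM, with 31.6 and 24.0 CPM in such nuclei. Several of these genes have near-identical copies (Gsta, Gstm, Gstp1 to Gstp3), so a count may belong to a neighbour.

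In 53 genes with enough counts in both preparations and a leading nucleus class that was also found among the cells, the cells had the same leading class in 15. Cyp2s1, Cyp2b10, Fmo1, Fmo2 and Cyp1a1 were among these. Genes led by club-like nuclei had no counterpart among the cells. The genes of 1 table only were sparse. In the cell table they were Cyp4x1os (123 counts), Cyp2c40 (25), Cyp2w1 (11), Cyp4f14 (6), Cyp1a2 (3), Cyp21a1 (2) and Cyp2d40 (2). In the nucleus table they were Ces1h (4 and 14 counts in libraries 1 and 2), Cyp2a4 (13 and 11), Cyp2a12 (3 and 5), Cyp2j5 (2 and 7), Ces5a (2 and 6) and Cyp2c50 (2 and 5), and none of the 13 was tested.

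Neighbouring genes did not share classes throughout. On chromosome 7 of the GRCm38 assembly most Cyp2 genes, though not Cyp2r1 and Cyp2e1, lie in 1 cluster, with Cyp2s1 (chr7:25802475-25816913, minus strand) and Cyp2b10 (chr7:25897620-25926624, plus strand) at 1 end and Cyp2b19 (chr7:26757142-26772630), Cyp2g1 (chr7:26808892-26821205) and Cyp2a5 (chr7:26835305-26843548) further on. Of these, 4 were led by the ciliated-like class of nuclei and Cyp2b10 by the AT1-like class. On chromosome 1, Fmo1 (chr1:162829561-162866610) and Fmo2 (chr1:162874317-162898726) lie side by side on the minus strand, and were led by aerocyte capillary-like nuclei and by mesothelial-like nuclei. Aox1 (chr1:58029931-58106413) and Aox3 (chr1:58113130-58200698), adjacent on the plus strand of chromosome 1, were both led by the club-like class.

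**Figure D3:**
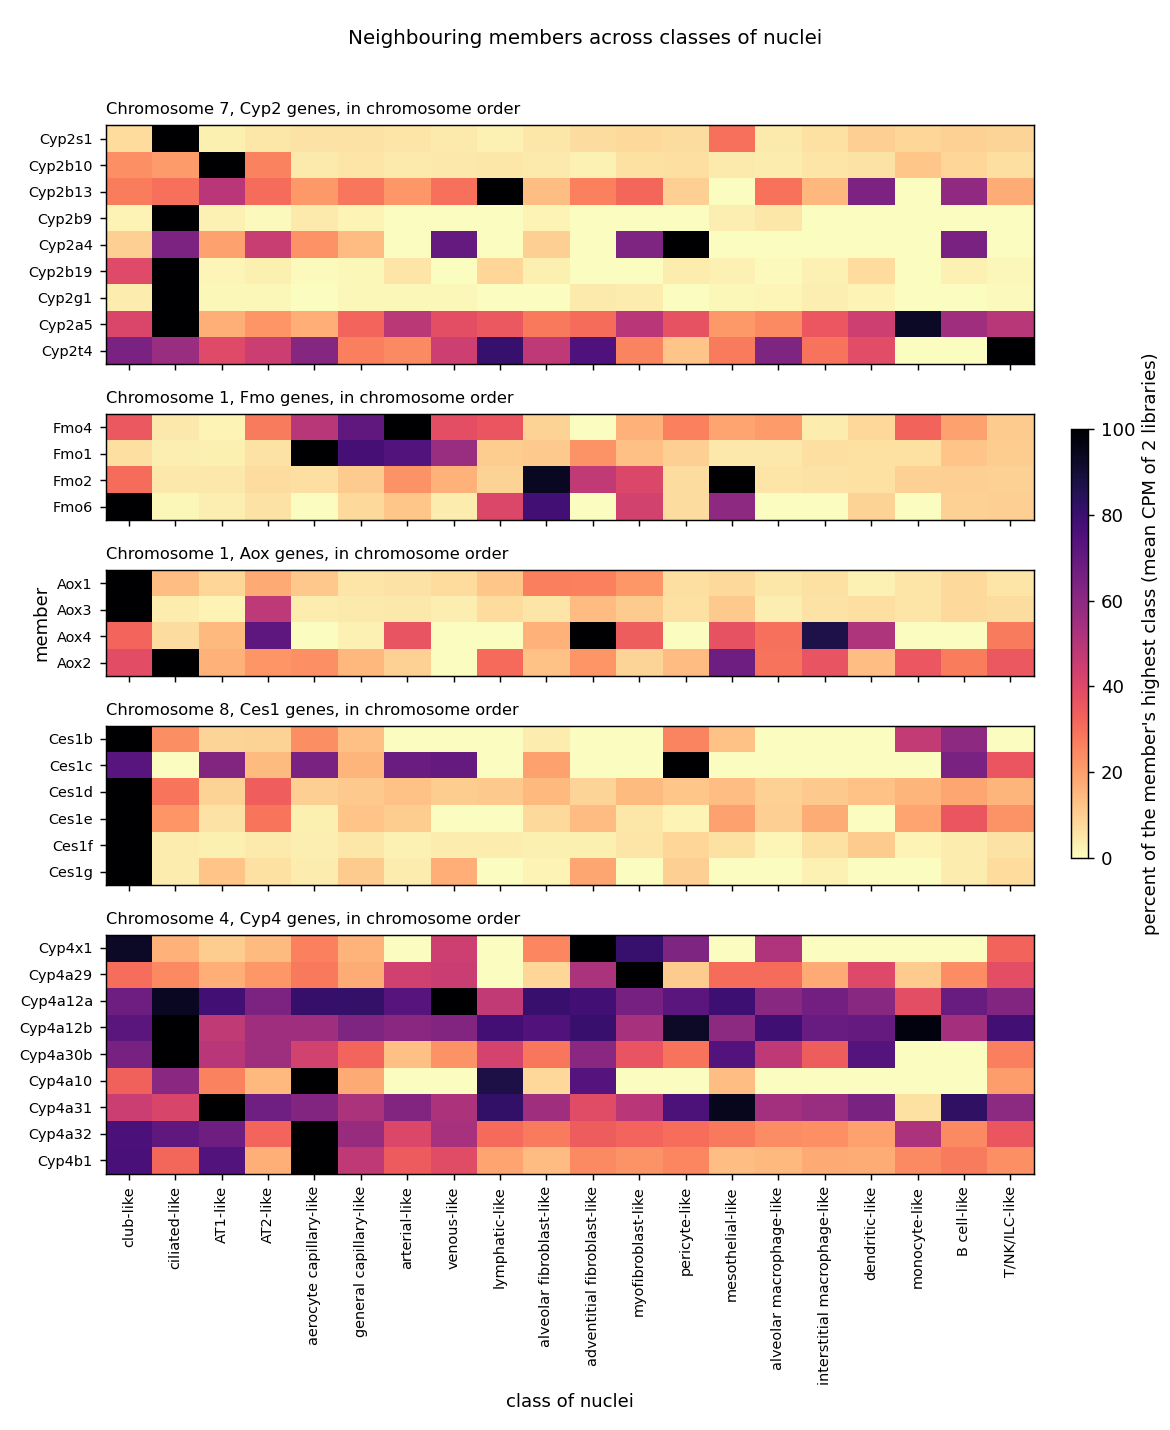
Mean level over both nucleus libraries in each class (columns), as a percent of the gene's own highest class, for neighbouring genes in chromosome order (rows) in 5 gene clusters. Rows of the Fmo cluster peak in different columns, with Fmo1 in capillary-like and Fmo2 in mesothelial-like and fibroblast-like nuclei, while Aox1 and Aox3 peak in the same column.

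The sequences upstream of 4 of these genes, from RefSeq for GRCm38.p6, are shown because the adjacent Aox1 and Aox3 shared their leading class, while Cyp2a5 and Cyp2b10, of the same cluster with other genes between them, did not. Each is written 5′ to 3′ on the plus strand and ends at the base before the gene, with capitals marking a match to the core of the xenobiotic response element bound by the aryl hydrocarbon receptor (GCGTG, or CACGC on the other strand) or to the C/EBP motif TTGCNNAA. Aox3 is shown as chr1:58112886-58113129, Aox1 as chr1:58029719-58029930, Cyp2a5 as chr7:26835089-26835304 and Cyp2b10 as chr7:25897408-25897619.
Aox3: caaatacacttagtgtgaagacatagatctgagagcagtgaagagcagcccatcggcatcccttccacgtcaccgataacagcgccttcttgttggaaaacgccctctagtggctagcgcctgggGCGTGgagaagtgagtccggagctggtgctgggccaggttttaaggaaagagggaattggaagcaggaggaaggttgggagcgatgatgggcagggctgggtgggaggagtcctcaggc
Aox1: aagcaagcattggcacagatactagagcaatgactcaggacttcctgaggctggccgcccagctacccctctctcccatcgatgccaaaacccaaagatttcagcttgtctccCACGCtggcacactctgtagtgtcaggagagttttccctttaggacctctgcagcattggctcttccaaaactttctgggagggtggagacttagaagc
Cyp2a5: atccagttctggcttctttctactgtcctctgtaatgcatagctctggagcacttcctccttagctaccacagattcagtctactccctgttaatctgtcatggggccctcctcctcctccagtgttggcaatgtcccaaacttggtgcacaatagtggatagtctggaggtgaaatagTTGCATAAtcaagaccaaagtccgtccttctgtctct
Cyp2b10: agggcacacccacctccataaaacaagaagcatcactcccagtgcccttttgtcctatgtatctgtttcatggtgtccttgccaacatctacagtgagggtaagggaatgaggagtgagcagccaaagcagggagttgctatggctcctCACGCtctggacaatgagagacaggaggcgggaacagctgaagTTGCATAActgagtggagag
Within 250 bases upstream and on both strands, GCGTG was found in 28.2% of 27025 RefSeq promoters and in 19.3% of the 119 promoters of these enzymes. TTGCNNAA was found in 9.55% of all promoters and in 21.0% of those of the enzymes. The forkhead motif TGTTTAC was found in 3.09% and 7.56%, the RFX motif GTTGCC in 10.5% and 10.9%, and the antioxidant response element TGACNNNGC in 10.1% and 3.36%, all promoters first. A match describes the letters only, and none overlapped another in the sequences shown.

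Over whole libraries, cells were compared with nuclei by edgeR's quasi-likelihood test on summed counts, with Benjamini-Hochberg adjustment over 19806 genes. The cell library has no replicate, which left 1 residual degree of freedom, and the fit took the cells to vary like the nuclei. Of the 117 enzymes in both tables, 97 passed the filter on low counts and were tested, and 13 of these were higher in cells, against a background of 16.5% of all genes, and 18 were lower, against a background of 8.51%. The median log2 fold, cells over nuclei, was -0.74 for the enzymes and -0.03 for all genes. The P450 genes of families 1 to 4 gave 4 higher and 8 lower of 46 tested, the other P450 genes 1 and 1 of 11, the flavin monooxygenases 1 and 2 of 6, the aldehyde oxidases 2 lower of 4, the carboxylesterases 2 and 2 of 12 and the glutathione transferases 5 and 3 of 18. The calls lower in cells were thus a larger share among these enzymes than among all genes.

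Several of the genes called lower in cells were led by club-like nuclei. The share of all genes led by that class that were lower in cells was not computed, so these calls have no background beside them. Aox3 stood at 12.1 CPM in the cells and at 318 and 332 CPM in the nuclei (log2 fold -4.58, SE 0.45, edgeR adjusted p = 0.0042). Ces1d stood at 32.2 CPM in the cells and at 199.8 and 179 CPM in the nuclei (log2 fold -2.39, SE 0.39, edgeR adjusted p = 0.0097). In both the cells lay far below both nucleus libraries. Aox1 (-3.11), Ces1f (-5.92), Cyp4f15 (-3.57), Cyp39a1 (-2.18), Gsta3 (-1.69), Gsta4 (-2.18) and Fmo6 (-3.24), all with their highest mean in club-like nuclei, were lower in cells on the same log2 scale. The club-like share was 0% of cells against 2.04% and 10.2% of nuclei in libraries 1 and 2. Between the nucleus libraries, Aox1, Ces1f and Cyp4f15 were higher in library 2, as that share was. Aox3 and Gsta4 were close in both, and Ces1d, Gsta3, Cyp39a1 and Fmo6 were lower in library 2. The part of the club-like share in the result was not tested.

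Genes led by other classes were also lower in the cells. Cyp2b10 stood at 19.1 CPM in the cells and at 252 and 167 CPM in the nuclei (log2 fold -3.30, SE 0.50, edgeR adjusted p = 0.0080), while AT1-like barcodes were 1.42% of cells against 4.99% and 9.99% of nuclei. Cyp2a5 (-4.30), Cyp2b19 (-5.95), Cyp4v3 (-1.94), Cyp3a13 (-2.67), Gstt1 (-1.46), Cyp4f13 (-1.41) and Cyp4a12b (-1.14) were lower as well, though Cyp4a12b lost its call with DESeq2 and without the filter on low counts. Cyp2s1 missed the threshold (log2 fold -2.47, SE 0.72, edgeR adjusted p = 0.0516), with 12.4 CPM in the cells and 35.3 and 124 CPM in the nuclei, but was called lower by DESeq2 and by edgeR without the filter.

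Cyp4x1 showed the widest difference in the other direction, at 37.4 CPM in the cells and 0.469 and 0.663 CPM in the nuclei (log2 fold 6.21, SE 0.41, edgeR adjusted p = 0.0024). Cyp4f18 stood at 62.7 CPM in the cells and at 3.32 and 6.41 CPM in the nuclei (log2 fold 3.88, SE 0.41, edgeR adjusted p = 0.0042), and neutrophil-like and monocyte-like barcodes were 1.98% and 11.1% of cells, against 0% and 0.473% of nuclei of library 1 and 0% and 1.92% of library 2. Cyp2ab1, led by monocyte-like nuclei, stood at 13.1 CPM in the cells and at 1.23 and 1.92 CPM in the nuclei (log2 fold 3.24, SE 0.48, edgeR adjusted p = 0.0075). Within monocyte-like barcodes alone, Cyp4f18 was still higher in cells (log2 fold 1.96, SE 0.61, edgeR adjusted p = 0.0115). Cyp2ab1, at 46.1 CPM in cells and 113 and 37.8 CPM in nuclei, had a log2 fold of -0.06 (SE 0.66, edgeR adjusted p = 0.970). Nucleus library 1 held only 32 monocyte-like nuclei, with 88613 counts in all, so its values for both genes rest on few counts. Gstp2 stood at 49.7 CPM in the cells and at 16.05 and 15.5 CPM in the nuclei (log2 fold 1.82, SE 0.31, edgeR adjusted p = 0.0107), and Gsto1 (1.30), Gstm4 (2.16), Gstm5 (2.72) and Gstp3 (2.16) also rose. Cyp11a1 (4.12), Ces2e (3.27), Cyp1a1 (2.75), Ces2g (2.09) and Fmo4 (1.97) completed the list.

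Fmo1 (log2 fold 0.12), Fmo2 (-1.07), Cyp4b1 (0.01) and Gstm1 (1.13, edgeR adjusted p = 0.0554) did not pass the test, which does not show that they were alike in cells and nuclei. Without TMM scaling the count higher in cells was 8 in place of 13. Leaving the scaling out moved the median of all genes by -0.17 on the log2 scale. The share of all genes called without it is not given here.

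**Figure D4:**
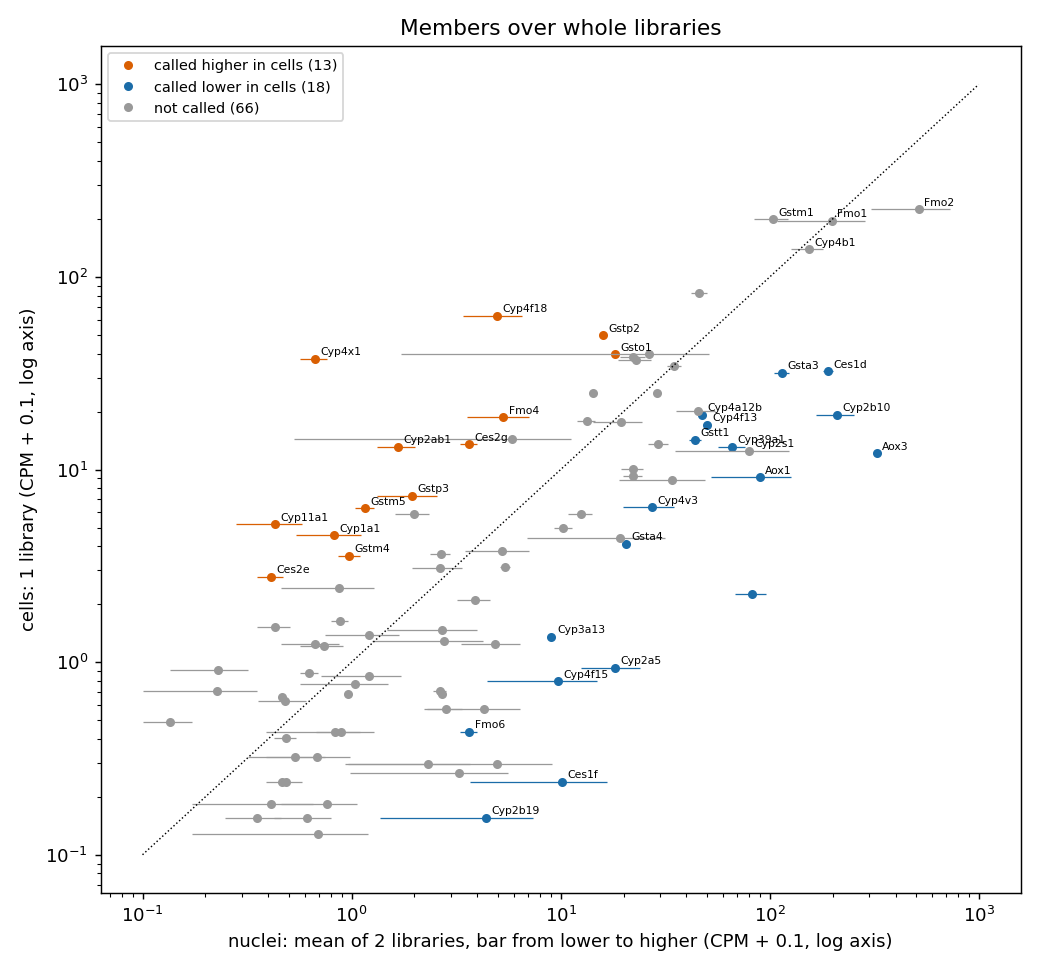
Level over whole libraries in cells (vertical axis, CPM + 0.1, log scale) against nuclei (horizontal axis, mean of both libraries, with a bar from the lower to the higher, CPM + 0.1, log scale) for the 97 genes tested. Colours mark the 13 called higher in cells, the 18 called lower and those not called by edgeR; Cyp4x1 lies far above the dotted line of equality and Aox3 and Ces1f far below it.

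The same comparison within 1 class at a time removes the share of the class from the value. In the 18 classes that had 30 or more barcodes in each library, 691 tests of these genes gave 85 calls higher in cells over 21 genes (background 13.9% of all tests) and 126 lower over 23 genes (background 7.04%). None of the genes was called in opposite directions in different classes. The club-like class could not be compared, having no cells. Cyp2s1, Cyp2b10 and Fmo1 were not called in the class where each was highest. Cyp2s1 in ciliated-like barcodes had a log2 fold of -0.09 (SE 0.27, edgeR adjusted p = 0.820), Cyp2b10 in AT1-like ones -0.99 (SE 0.56, edgeR adjusted p = 0.209) and Fmo1 in aerocyte capillary-like ones 0.03 (SE 0.47, edgeR adjusted p = 0.966).

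Lower calls lay largely where the gene was weak. Of the 126, 78 (61.9%) fell in classes whose nucleus level was under 20% of that of the gene's leading class, which held 36.3% of the 691 tests. Immune classes held 49 of the 126 (38.9%) and 30.1% of the tests. Aox3 was lower in cells in 16 of 18 classes, Cyp2b10 in 13 of 17, Cyp2s1 in 12 of 17, Ces1d in 11 of 18 and Aox1 in 8 of 17. In T/NK/ILC-like barcodes, for example, Ces1d stood at 11.1 CPM in cells and 135 and 139 CPM in nuclei (log2 fold -3.28, SE 0.50, edgeR adjusted p = 9.2e-05). Free RNA was not measured on its own, and its part in the calls was not tested.

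AT2-like barcodes, the surfactant-making epithelium, held 9 genes higher (background 19.9%) and 13 lower (background 14.5%) of 63 tested. Aox3, second only to club-like nuclei there, stood at 152 CPM in cells and 1061 and 580 CPM in nuclei (log2 fold -2.46, SE 0.55, edgeR adjusted p = 0.0071). Cyp4v3 stood at 5.12 CPM in cells and 50.8 and 71.1 CPM in nuclei (log2 fold -3.56, SE 0.46, edgeR adjusted p = 0.0005). Cyp2b10 (-2.73), Aox1 (-2.05) and Cyp39a1 (-1.84) were lower as well, while Fmo1 (2.02), Gstp2 (2.12), Gstm2 (1.44), Cyp4a32 (1.16) and Gstm1 (1.13) were higher on the same log2 scale. Aox3 and Cyp4v3 in AT2-like cells lay below both nucleus libraries by several fold.

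Glutathione transferases of the mu and pi classes made up many of the calls higher in cells. Gstp2 was higher in 10 of 16 classes and Gstm1 in 10 of 18, and Gstm2 in 6 of 17. In ciliated-like barcodes, where 5 genes were higher (background 11.9%) and 4 lower (background 7.8%) of 31 tested, Gstm1 stood at 708 CPM in cells and 126 and 147 CPM in nuclei (log2 fold 2.26, SE 0.28, edgeR adjusted p = 0.0012) and Gstp2 at 112 CPM in cells and 17.0 and 15.2 CPM in nuclei (log2 fold 2.76, SE 0.42, edgeR adjusted p = 0.0033). Cyp2g1 was lower in ciliated-like cells (log2 fold -2.19, SE 0.53, edgeR adjusted p = 0.0208). The cell values of Gstm1 and Gstp2 were several times both nucleus values, and no lower call was made for either gene.

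Among capillary classes, aerocyte capillary-like barcodes held 10 genes higher (background 17.5%) and 11 lower (background 10.2%) of 43 tested, and general capillary-like ones 10 higher (background 13.2%) and 12 lower (background 5.89%) of 62. Cyp4a32 was higher in cells of both, by log2 folds of 1.60 (SE 0.39, edgeR adjusted p = 0.0005) and 2.19 (SE 0.38, edgeR adjusted p = 0.0025). Ces2g was higher in aerocyte capillary-like cells (log2 fold 3.10, SE 0.48, edgeR adjusted p = 4.4e-09) and Fmo4 in general capillary-like cells (log2 fold 2.58, SE 0.35, edgeR adjusted p = 0.0009). Cyp26b1 passed the test in aerocyte capillary-like barcodes (log2 fold 1.08, SE 0.43, edgeR adjusted p = 0.0441), but at 56.2 CPM in cells and 0.685 and 57.8 CPM in nuclei the cell value lay within the range of the nuclei.

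In phagocytes, alveolar macrophage-like barcodes held 7 genes higher (background 24.3%) and 13 lower (background 14.6%) of 40 tested. Gsto1 was higher there (log2 fold 2.41, SE 0.34, edgeR adjusted p = 5.3e-05), as was Cyp4f18 at 88.3 CPM in cells and 6.65 and 24.7 CPM in nuclei (log2 fold 2.78, SE 0.41, edgeR adjusted p = 9.9e-05). Cyp27a1 was lower in dendritic-like cells (log2 fold -2.24, SE 0.54, edgeR adjusted p = 0.0025), where 3 genes were higher (background 18.2%) and 6 lower (background 7.03%) of 27 tested. It was lower in interstitial macrophage-like cells as well (log2 fold -1.97, SE 0.47, edgeR adjusted p = 0.0128), where 3 were higher (background 13.1%) and 6 lower (background 4.83%) of 35. In both classes the cell value of Cyp27a1 was a fraction of either nucleus value. Alveolar fibroblast-like barcodes gave 8 higher (background 12.0%) and 6 lower (background 3.88%) of 57, and Fmo2 did not pass the test there (log2 fold -1.04, SE 0.80, edgeR adjusted p = 0.373).

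In AT1-like barcodes 5 genes were higher (background 15.0%) and 6 lower (background 7.71%) of 41, with Fmo1 at 152 CPM in cells and 23.4 and 21.5 CPM in nuclei (log2 fold 2.51, SE 0.35, edgeR adjusted p = 0.0004). Venous-like barcodes gave 7 higher (background 14.1%) and 11 lower (background 5.43%) of 41, Cyp1a1 among the higher (log2 fold 2.79, SE 0.66, edgeR adjusted p = 0.0004). Myofibroblast-like barcodes gave 5 higher (background 13.6%) and 7 lower (background 7.24%) of 33, including Cyp2e1, which metabolises ethanol, at 115 CPM in cells and 64.2 and 9.67 CPM in nuclei (log2 fold 1.53, SE 0.56, edgeR adjusted p = 0.0450). The cell values of Fmo1 and Cyp2e1 lay above both nucleus values, although the nucleus libraries differed widely for Cyp2e1. Mesothelial-like barcodes gave 5 higher (background 12.9%) and 4 lower (background 6.52%) of 33, and adventitial fibroblast-like ones 1 higher (background 15.0%) and 1 lower (background 3.58%) of 23. Lymphatic-like barcodes gave 2 lower (background 4.15%) of 15.

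Lymphocyte-like and monocyte-like classes gave mostly lower calls. B cell-like barcodes gave 1 higher (background 10.3%) and 10 lower (background 6.49%) of 37, T/NK/ILC-like ones 4 higher (background 12.9%) and 9 lower (background 6.72%) of 41, and monocyte-like ones 2 higher (background 11.7%) and 5 lower (background 4.13%) of 28. Most of the named genes lower there, Aox3, Cyp2b10, Ces1d and Cyp2s1 in all 3 classes, are led by epithelial classes. Pericyte-like barcodes gave 0 calls by edgeR among 11700 genes, with 2863 genes at an unadjusted p under 0.05, of which 14 of the 41 enzymes tested. DESeq2 called 612 of 19100 genes tested in that class, and 5 of the 94 enzymes of these families that it tested.

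Other genes of the same chemistry, from lists of regulators, electron partners, targets of the stress regulator Nrf2, hydrolases, aldehyde and carbonyl enzymes, conjugating enzymes and efflux pumps, were read from the same whole-library fit. Of 71 tested, 11 were higher in cells and 11 lower, beside the same backgrounds of 16.5% and 8.51%. Nrf2 targets gave 5 higher of 9, namely G6pdx, Gclm, Gsr, Hmox1 and Slc7a11, a cystine carrier with a log2 fold of 3.80 (SE 0.55, edgeR adjusted p = 0.0071). Of 12 regulators tested, Bach1, Maff and Tiparp, an aryl hydrocarbon receptor target with a log2 fold of 1.88, were higher and Ppara was lower. Of 19 aldehyde, alcohol and carbonyl enzymes, Adh5 was higher and Akr1c14, Aldh1a1, Aldh1a7 (log2 fold -3.92) and the carbonyl reductase Cbr2 (log2 fold -3.46) were lower.

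Of 4 electron partners of P450 tested, 1 was lower in cells, 1 was higher and the others were not called. Por, the reductase that feeds the P450 enzymes, was lower in cells (log2 fold -1.94, SE 0.44, edgeR adjusted p = 0.0246) and Cyb5r3 higher (log2 fold 2.01, SE 0.34, edgeR adjusted p = 0.0104). Por was highest in club-like nuclei at 3090 and 2281 CPM, against 148 and 228 CPM in T/NK/ILC-like nuclei. The efflux pump Abcc3 held 180.2 and 262 CPM in club-like nuclei and was lower in cells (log2 fold -2.11, SE 0.45, edgeR adjusted p = 0.0217), whereas Abcb1b was higher. Cbr2 held 1653 and 2936 CPM in club-like nuclei, beside 857 and 974.7 CPM in T/NK/ILC-like nuclei. Gstz1 among the other glutathione enzymes, Pon1 and Pon3 among 5 hydrolases and Sult1d1 among 8 conjugating enzymes were lower in cells.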

How the data were processed

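The authors deposited 1 table for the cells and 1 for both nucleus libraries, with whole-number counts per gene and barcode that were taken here as UMI counts. The authors aligned reads to mm10 with STAR 2.5.3a, per the submitters' processing notes. How reads were counted (program, annotation, strand, introns) is not given in the sources used here. Barcodes had been filtered before deposit, with at most 2499 genes in the cells and 2499 and 2999 in nucleus libraries 1 and 2.

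A barcode was kept if it held 400 or more genes and its mitochondrial share stayed under 20%. A Scrublet-type score marked 7 cells and 82 and 9 nuclei as doublets, and only the 82 were removed, since calls under 0.5% of a library were not used. Cells and nuclei were clustered separately with scanpy 1.11.5 (2000 variable genes, 30 components, 20 neighbours, Leiden resolution 1), without the enzymes and Cyp2f2. Naming a cluster took 3 or more markers of 1 class that were each 2-fold higher there, after adding 10 CPM, and present in 5% of its barcodes; the thresholds of 10 CPM and 5% were chosen after seeing the data. A cluster of 168 cells with markers of 2 lineages was left out of every class. Names rebuilt in this way may differ from those of the study.

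CPM values are counts scaled by the total of the class or library. Shares of barcodes with a count follow thinning to 1000 counts, which left out 253 barcodes of nucleus library 2, and carry exact binomial 95% intervals that cover counting error only. Summed counts over the 21507 genes in both tables were tested per library or class with edgeR 4.0.16 (quasi-likelihood, TMM, filterByExpr) in R 4.3.3. Each SE given with an edgeR fold was worked back from the test, as the absolute log2 fold divided by the square root of the F statistic. It is not a standard error reported by the fit. An adjusted p under 0.05 was a call, and the procedure was tested on simulated counts. Alternatives were DESeq2 1.42.0, no TMM, no filter, resolution 2, other minimum counts and class sizes, and each nucleus library left out. Floors are 3 counts. Named genes were the members with a highest class level of at least 50 CPM in the cells or in both nucleus libraries and those called over whole libraries, the leading 40 by level of 49 eligible; results for some of these are not reported here, though counts over all members include them; other genes are named where a count is spelled out. Of the related genes, the 3 called with the largest fold in each direction and the leading airway gene of each list were chosen. The members and lists were chosen with earlier results of these data known. List or marker genes not in both tables (Krt17, Il25, Ugt1a1, Ugt1a6a, Ugt1a7c, Krt5, Nat1, Ugt2b35, Mcpt8, Nr1i3, Ugt2b34) were not analysed here in the comparison. Gene positions are those of GENCODE for GRCm38, and promoter sequences those of RefSeq for GRCm38.p6.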

Additional observations from a re-analysis of the deposited data

Results flagged for a closer look

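In 5 of the named genes the fitted log2 fold, cells over nuclei, took opposite signs in different classes, with the cells above both nucleus libraries in 1 class and below both in the other. Only classes where a library reached 50 CPM of the gene were read, and at least 1 of each pair of values was a call. The difference between the classes was not tested in any of them. Fmo1 had a log2 fold of 2.51 in AT1-like barcodes (152 CPM in cells, 23.4 and 21.5 CPM in nuclei) and -0.24 in B cell-like ones (62.2 CPM in cells, 84.1 and 99.5 CPM in nuclei). Cyp4b1 had 0.80 in pericyte-like barcodes (207 CPM in cells, 108 and 114 CPM in nuclei) and -1.40 in B cell-like ones (36.7 CPM in cells, 119 and 124 CPM in nuclei). Gstm1 had 2.26 in ciliated-like barcodes and -0.93 in B cell-like ones (63.7 CPM in cells, 110.2 and 193 CPM in nuclei).

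Ces1d had 0.73 in mesothelial-like barcodes (193 CPM in cells, 152 and 90.5 CPM in nuclei) and -7.05 in lymphatic-like ones. In lymphatic-like barcodes Ces1d had 0 counts in cells, which allows up to 15.6 CPM, against 85.4 and 113 CPM in nuclei, so the fitted value is not a measured size. Cyp4a32 had 2.19 in general capillary-like barcodes and -1.61 in monocyte-like ones (13.2 CPM in cells, 45.1 and 60.5 CPM in nuclei, from 48 counts in cells and 4 and 16 in nuclei). In 3 of the 5 genes the negative value came from B cell-like barcodes, and the part of free RNA in it was not tested.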

How the results depend on the processing

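Over whole libraries the 13 genes higher in cells became 8 without TMM scaling, and the 18 lower became 16. Among the named genes, Gsto1 (log2 fold 1.13), Fmo4 (1.83) and Cyp1a1 (2.61) lost their call as higher. Cyp4f15 (-3.78) lost its call as lower. Cyp4a12b lost its call with DESeq2 (-1.15) and without the filter on low counts (-1.12), Cyp2s1 gained one in both (-2.46 and -2.45), and Cyp2g1 gained one with DESeq2 (-4.40). DESeq2 called 36 of the genes over whole libraries, of which 29 were among the 31 of edgeR in the same direction. Within classes DESeq2 gave 27 calls higher in cells in place of 85 and 66 lower in place of 126. The cause was not tested. The shares of all genes called without TMM scaling or by DESeq2 are not given here. The counts from these alternatives therefore have no background beside them. The 2 genes led by AT2-like nuclei became 1 at clustering resolution 2, and 1 to 1 when either nucleus library was left out. The 18 led by club-like nuclei came to between 13 and 17 under the alternatives tried. With 1 nucleus library left out there is no residual spread and no test; the 13 higher and 18 lower genes kept their sign in either case. Levels still moved by more than the replicate spread in 6 and 7 of the 40 named genes. Without nucleus library 1 the log2 fold came to -0.20 for Fmo2 and 1.10 for Fmo1. Without library 2 it came to 4.65 for Cyp26b1 and -1.41 for Cyp2s1. Leaving out library 2 also moved Ces1f to -4.09, Cyp4f15 to -2.46 and Aox1 to -2.45, all led by club-like nuclei. No fold of a named gene called over whole libraries changed sign under any alternative run. No paired analysis was possible because there is 1 cell library, and its number does not tie it to a nucleus library. In low classes depth limits the values, since 3 counts amount to 33.9 CPM in monocyte-like nuclei of library 1.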
